A study of Drosophila melanogaster with 6 samples.

Results

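The cytoplasmic ribosomal protein genes of the small subunit were described in an RNA immunoprecipitation experiment on the Drosophila protein Isha. The members were taken by name, as every gene of the deposited count table whose dm6 symbol starts with RpS and a digit, copies included, plus sta, which encodes the small-subunit protein SA. Genes on chromosome 4 were left out. This gave 38 of the 17612 genes in the table. RpS3A, on chromosome 4, was thereby not a member; its mean was 495 CPM in input (SD 19.8, n = 3) and 348 CPM in RIP (SD 17.2, n = 3). CPM values are counts scaled to a common library total, with a normalization factor (TMM) for each library.

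The study compared 2 groups of 3 libraries to ask which transcripts are recovered with Isha, an RNA-binding protein linked to the su(Hw) insulator. All libraries came from nuclear extract of mixed-stage embryos (0 to 24 h) of the wild-type strain Oregon R, so every library pooled many animals and cell types. In the Isha RIP group, extract precleared on beads with preimmune rabbit serum was put on beads with a rabbit antiserum against Isha (Isha-Rb94), and the RNA on these beads was sequenced. The input group carried no antibody. No control immunoprecipitation was used here, and recovery through Isha and recovery through beads or serum cannot be told apart. The labels do not say that libraries of a group came from separate extracts, and p-values thus cover the spread among these libraries alone, possibly a technical one.

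The small ribosomal subunit decodes messenger RNA. It is built in the nucleolus from ribosomal RNA and one copy of each of its proteins, and it recruits initiation factors and scans the message before the large subunit joins. Loss of a single gene copy of many of these proteins gives the Minute phenotype of flies, with slow growth and short bristles. Messages of ribosomal proteins are abundant and short, start with a pyrimidine-rich tract through which the TOR pathway controls their translation, and several of their genes hold small nucleolar RNAs (snoRNAs) in introns.

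Library totals were 29344529 to 31680173 counts in input and 8386414 to 14342543 in Isha RIP. Among the 11764 genes tested, 57.4% differed between the groups (edgeR quasi-likelihood test, adjusted p under 0.05), with a median log2 fold change of RIP over input of -0.05. As a check on the labelled tissue, all 10 embryo markers (such as eve, ftz, elav and Mhc) were measured in input, between 10.5 CPM for sim and 3762 CPM for Mhc. Of 6 genes listed as markers of adult tissues, 5 were at 0.095 to 0.819 CPM in input. The other, Lcp65Ac, was at 85.5 CPM, but it is a larval cuticle protein gene and not a marker of adult tissue. Called changes among both lists were sim (log2 fold change 1.22), elav (0.79), Mef2 (0.50), twi (0.91), ftz (0.85), Mhc (-0.49), repo (-0.73), Lcp65Ac (1.00) and Act88F (2.02). Every library was scaled by its own total and its own TMM normalization factor, so higher and lower mean relative to the typical transcript, not an amount of RNA recovered.

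Small-subunit ribosomal protein transcripts took a smaller share of the Isha RIP libraries than of input. Together the 38 genes held 3.30%, 3.31% and 3.27% of all counts in the input libraries and 1.89%, 1.85% and 1.91% in the RIP libraries, with no overlap of the groups. Most members were lower in RIP, by amounts that ranged from a few percent to nearly 5-fold, and RpS27A was among the genes that were higher. Of the 35 members that passed the filter on low counts, 29 were lower and 2 were higher at an adjusted p under 0.05 (edgeR), and 4 did not pass this threshold. Over all tested genes 30.4% were lower and 27.0% were higher. The median log2 fold change of the tested members was -0.98. The other 3 members, RpS10a, RpS28a and RpS28-like, had too few counts to be tested. With a per-library correction for gene length, 26 members were lower and 6 were higher, with a median of -0.75.

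Many of the lower members passed a minimum size of change as well. Of the tested members, 22 were lower beyond a 1.5-fold change (edgeR glmTreat, adjusted p under 0.05), a call that 14.5% of all tested genes met, and 0 were higher beyond it, against 11.4% of all. At an unadjusted p under 0.05 that count was also 0, as it was with DESeq2 and with limma-voom, and with the length correction it was 1. At least 2-fold lower levels were found for 17 members, against 12.8% of all tested genes. Input and RIP libraries had separate ranges of CPM in 31 members that were lower in RIP (34.0% of all tested genes) and in 2 that were higher (30.0%). In the order of log2 fold change over all tested genes, 7 members lay within the lowest 5 percent, 13 within the lowest 10 percent and 32 below the median.

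**Figure D1:**
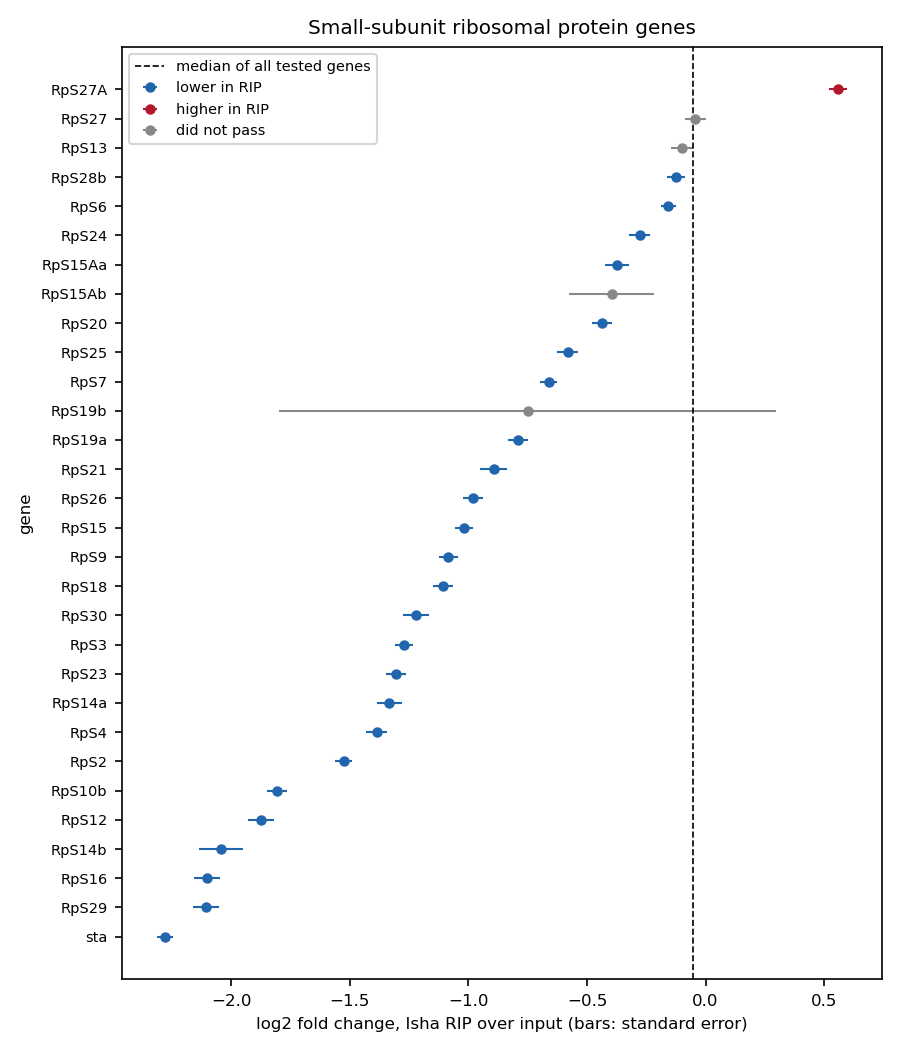
The log2 fold change of Isha RIP over input is plotted for 30 of the 35 tested members, ordered by size, with bars for the standard error and a dashed line at the median of all tested genes (-0.05). The points spread from -2.28 for sta to 0.56 for RpS27A, mostly with short error bars. RpS19b has by far the longest bar and RpS15Ab the next longest, and the bars of RpS19b and RpS27 cross the dashed line.

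The lowest member was sta, whose protein sits on the solvent side of the subunit near the messenger exit and is related to the vertebrate laminin receptor. Its transcript measured 2457, 2403 and 2413 CPM in the input libraries and 496, 495 and 506 CPM in the RIP libraries. All 3 RIP libraries were far below all 3 input libraries, and the libraries of a group differed by only a few percent. The log2 fold change was -2.28 (SE 0.034, adjusted p = 1.48e-23, edgeR), a 4.86-fold lower level that lay at percentile 1.80 of all tested genes. The gene (FBgn0003517) occupies positions 1481797 to 1483413 of chromosome X in dm6 (minus strand), without overlap by exons of another gene.

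Proteins of the head of the subunit, which holds the transfer RNAs and swivels during translocation, included several of the lowest members. RpS29, a small zinc-binding protein, measured 884, 857 and 771 CPM in input and 204, 185 and 194 CPM in RIP. RpS16, which reaches the decoding region with its tail, measured 501, 535 and 484 CPM in input and 117, 118 and 119 CPM in RIP. Both were more than 4-fold lower without overlap of the groups, at log2 fold changes of -2.11 (SE 0.0543) and -2.10 (SE 0.055). RpS12, a beak protein that in flies also acts in the competition between cells of unequal ribosome gene dose, measured 644, 609 and 590 CPM in input and 171, 156 and 174 CPM in RIP, a log2 fold change of -1.87. RpS3, which lines the messenger entry channel, had a log2 fold change of -1.27, RpS18 of -1.11 and RpS15 of -1.02. Exons of RpS29 overlap the antisense transcript asRNA:CR31514 and those of RpS15 overlap CG4945 on the opposite strand. No source used here gives the strand setting of the counts, and reads of such partners may be mixed.

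Other head proteins differed far less. RpS25, which some viral messages need for initiation, and RpS20 had log2 fold changes of -0.58 and -0.44. Exons of RpS20 overlap those of CG17272 on the opposite strand. RpS27A, made as a fusion with ubiquitin, went the other way, at 641, 671 and 658 CPM in input and 937, 999 and 965 CPM in RIP. All its RIP libraries were above all its input libraries, with a log2 fold change of 0.56 (SE 0.0395, adjusted p = 3.03e-11, edgeR), a 1.47-fold higher level at percentile 76.4 of all tested genes. It was higher in every processing setting that tested it, at log2 fold changes of 0.53 to 0.68. RpS27A (FBgn0003942) occupies positions 10408352 to 10410456 of chromosome 2L (plus strand). Its exons overlap those of Ip259 on the same strand, and other genes also encode ubiquitin repeats, so the counting of its reads is uncertain.

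Proteins of the body and platform covered a like range. RpS2, of the messenger entry region, had a log2 fold change of -1.53, RpS4 of -1.39, RpS23, a decoding-site protein, of -1.31, RpS30, made as a fusion with a ubiquitin-like protein, of -1.22 and RpS9 of -1.08. RpS9 was at 2036, 2214 and 2172 CPM in input and 1072, 992 and 965 CPM in RIP, and its exons overlap asRNA:CR45874. RpS26, which contacts the messenger near its exit, and RpS21 followed at -0.98 and -0.89, and RpS7 at -0.66.

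A few body and platform members were close to the typical transcript. RpS24 had a log2 fold change of -0.28. RpS6, the substrate of the TOR-dependent kinase S6k, measured 1589, 1606 and 1657 CPM in input and 1436, 1428 and 1489 CPM in RIP, a log2 fold change of -0.16 (SE 0.0333, adjusted p = 0.00032, edgeR). Exons of RpS6 overlap CR33222 and snoRNA:Or-aca2 on the same strand. RpS13 measured 679, 684 and 692 CPM in input and 589, 656 and 671 CPM in RIP (log2 fold change -0.10, adjusted p = 0.0673, edgeR). RpS27, a zinc-finger protein, measured 431, 425 and 417 CPM in input and 411, 406 and 419 CPM in RIP (log2 fold change -0.04, SE 0.045, adjusted p = 0.434, edgeR), and its groups overlapped. With the length correction RpS6, RpS13 and RpS27 had log2 fold changes of 0.15 and were called higher.

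Levels of different members were compared per kilobase of summed exon length. Over the 33 members of at least 100 CPM in input, the mean level per kilobase had a median of 1002 CPM in input, with quartiles at 709.6 and 1353 CPM. In RIP the median was 485 CPM, with quartiles at 316 and 863 CPM. The lowest of these members was RpS14b, at 202 CPM per kilobase in input and 48.9 CPM per kilobase in RIP. The coefficient of variation over these members was 49.3%, 49.4% and 50.2% in the input libraries and 76.9%, 77.0% and 79.5% in the RIP libraries. The transcripts were thus less even in RIP than in input. The proteins are needed in equal number, but this sets no level for single copies of a duplicated gene, such as RpS14a and RpS14b, which are included here. Among the highest per kilobase in input were RpS9 at 2103 CPM and RpS15 at 1956 CPM. RpS15 measured 1625, 1597 and 1531 CPM in input and 782, 757 and 804 CPM in RIP. In RIP the order changed, and RpS27A rose from 1109 to 1634 CPM per kilobase, while sta fell from 1812 to 373 CPM per kilobase.

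**Figure D2:**
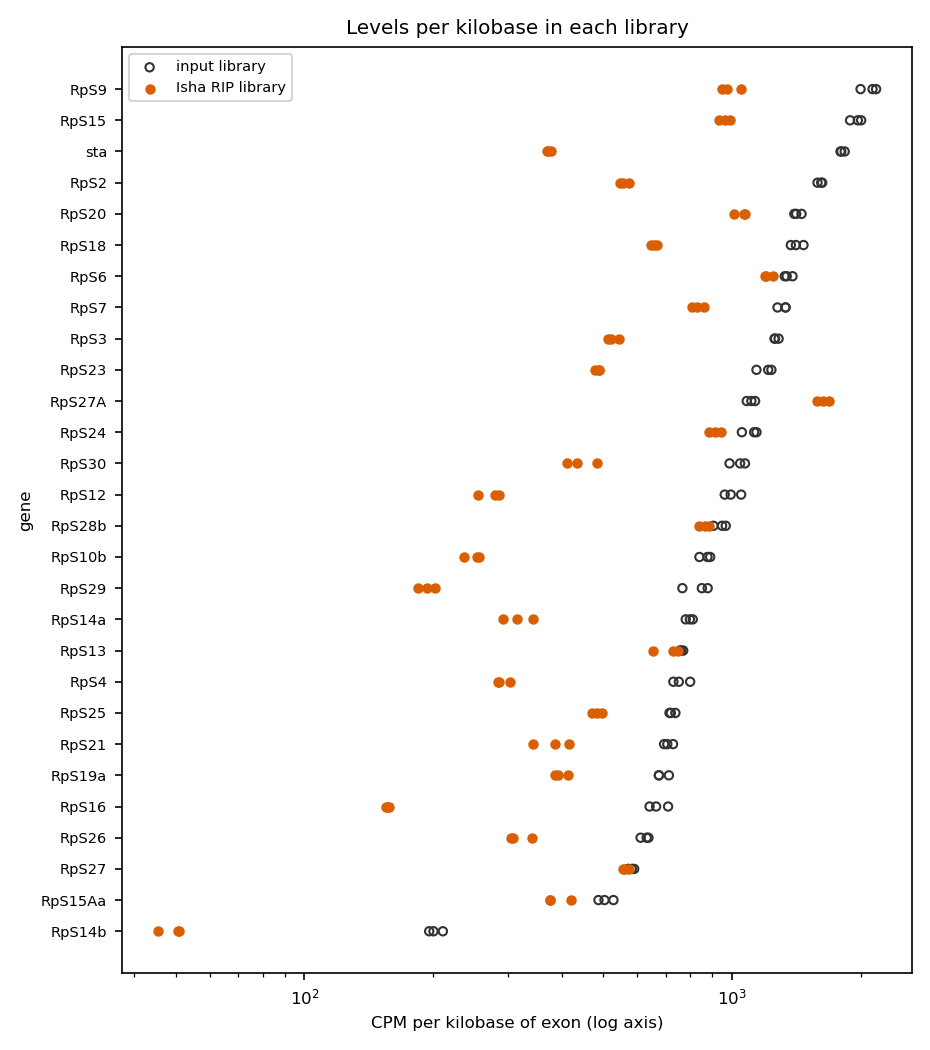
CPM per kilobase of exon is plotted on a log axis for 28 members of at least 100 CPM in input, ordered by their input level, with open circles for the 3 input libraries and filled circles for the 3 Isha RIP libraries. Circles of a group lie close together, and the filled circles scatter widely around the input order, from far left of it for sta and RpS16 to right of it for RpS27A.

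RpS14a and RpS14b, tandem copies on chromosome X with 220 bases between them, encode the platform protein S14. RpS14a measured 699, 710.3 and 684 CPM in input and 276, 301 and 255 CPM in RIP, and RpS14b 120, 126 and 117 CPM in input and 30.2, 27.1 and 30.4 CPM in RIP. Their log2 fold changes were -1.33 (SE 0.0527) and -2.04 (SE 0.0919), and the share of RpS14b in the pair was 14.7% ± 0.260 (SD, n = 3) in input and 9.58% ± 1.21 in RIP (exact permutation p = 0.1, 2-sided, the smallest that 3 libraries against 3 allow). The copies are near-identical in coding sequence, so reads could be split between them or lost, and both values are uncertain.

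RpS15Aa and RpS15Ab encode S15A, a body protein with a bacterial counterpart. RpS15Aa measured 460.1, 475 and 499 CPM in input and 355, 355 and 396 CPM in RIP (log2 fold change -0.37, adjusted p = 1.62e-06, edgeR). With the length correction this call was lost, at a log2 fold change of -0.11 (adjusted p = 0.0688, edgeR). RpS15Ab, an intronless copy, measured 16.8, 20.3 and 17.5 CPM in input and 15.4, 12.4 and 13.6 CPM in RIP, which did not pass (log2 fold change -0.40, SE 0.181, adjusted p = 0.0662, edgeR). Its share in the pair was 3.67% ± 0.379 in input and 3.62% ± 0.469 in RIP (SD, n = 3), with overlapping groups. Reads could be split between these copies as well.

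**Figure D3:**
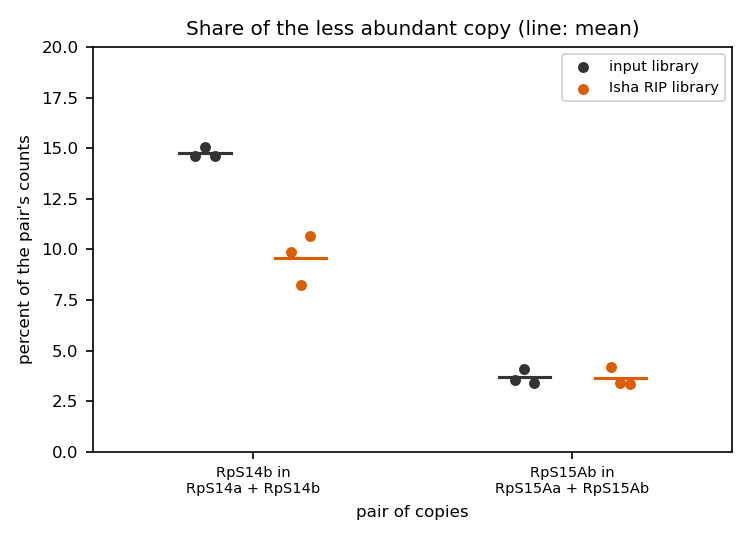
The share of the less abundant copy in the counts of its pair is plotted in percent for RpS14b and RpS15Ab, with points for the 3 libraries of each group and a line for their mean. RpS14b has a lower share in every RIP library than in every input library, and the shares of RpS15Ab overlap.

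RpS19b and RpS10a had few counts. RpS19a, a head protein whose human counterpart is mutated in Diamond-Blackfan anaemia, measured 893, 846 and 847 CPM in input and 484, 492 and 518 CPM in RIP, a 1.73-fold lower level. RpS19b, a germline copy, had 31, 17 and 28 counts in input and 5, 0 and 12 counts in RIP, and its log2 fold change of -0.75 had a standard error of 1.05. RpS10b, the general copy of the head protein S10, measured 1365, 1385 and 1307 CPM in input and 398, 367 and 394 CPM in RIP, a log2 fold change of -1.81, and its exons overlap those of CG14220 on the opposite strand. RpS10a had 35, 25 and 13 counts in input and 0 in each RIP library. Set against a floor of 3 counts in each RIP library, which is 0.208 to 0.355 CPM, its level was at least 2.66-fold lower in RIP. Such floors cover counting error only.

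RpS28b, a head protein at the messenger exit, was nearly level between the groups, at 880.3, 940.5 and 922 CPM in input and 861, 842 and 812 CPM in RIP (log2 fold change -0.13, SE 0.0395, adjusted p = 0.00948, edgeR). Its call was lost without input replicate 2 (log2 fold change -0.10), with RLE size factors (-0.08, adjusted p = 0.0804, edgeR), with DESeq2 (-0.09, adjusted p = 0.067) and with libraries thinned to equal depth (-0.09, adjusted p = 0.0935, edgeR), and with the length correction it was called higher, at 0.14. Its exons overlap those of CG15317 on the opposite strand. RpS28a had 4 counts in input replicate 1 and 0 elsewhere, and RpS28-like had 11 counts in input replicate 3, 4 in RIP replicate 2 and 0 elsewhere.

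Markers of the germline were counted beside the germline copy. Of 10 such genes, 3 were lower (zpg at a log2 fold change of -1.63, nanos at -1.38 and aub at -1.15) and tud was higher at 0.23. The other 6 did not pass the threshold, and exons of nanos and aub overlap genes on the opposite strand. Among all tested genes 30.4% were lower and 27.0% were higher. The sum over the list ranged from 355 to 374 CPM (input) and from 362 to 386 CPM (RIP). Most of that sum was tud and gcl, at 157 and 149 CPM in input, and the next marker, nanos, was at 19.8 CPM. The sum thus says little about the sparse markers. No marker was at 0 over a whole group. The part of germline RNA in the values of RpS19b was not tested. In input from pooled embryos, the number of cells of a type and the RNA per cell cannot be told apart. A change of RIP over input measures neither.

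Groups of members were then set side by side, as a description without a test between them. Of the 16 tested genes of head proteins, 14 were lower and 1 was higher, with a median log2 fold change of -1.06, and of 19 genes of body and platform proteins, 15 were lower and 1 was higher, with a median of -0.92. Proteins of universal families, which have bacterial counterparts, had a median of -1.29 over 18 genes, 13 of them called and at least 2-fold lower. Proteins of the other families, without a bacterial counterpart, had a median of -0.75 over 17 tested genes, of which 4 were called and at least 2-fold lower. Over all tested genes 30.4% were lower, 27.0% were higher and 12.8% were called and at least 2-fold lower. The summed CPM of universal members was 17426 to 17857 in input and 8402 to 8703 in RIP, and that of the other members 15443 to 15733 and 9907 to 10316. Across the 33 members of at least 100 CPM, the log2 fold change had a Spearman rho of -0.27 with exon length, 0.17 with the input level per kilobase and -0.09 with the number of annotated exons. These are descriptions across genes that share the same libraries.

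The members lay on 5 chromosome arms, with median log2 fold changes of -0.83 for the 10 tested on 3R, -0.89 for 5 on 2L, -1.02 for 7 on 2R, -1.24 for 4 on 3L and -1.33 for 9 on X. Exons of 10 members overlap another gene. The 9 of these that were tested had a median of -0.92, and the 26 without overlap had a median of -1.04.

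In 12 members the gene span held snoRNA genes on the same strand, 42 in all, of which RpS7 held 7 and RpS16 held 5. The snoRNAs guide modification of ribosomal RNA and are cut from introns, and the host counts rest on exons. An exception is snoRNA:Or-aca2, which overlaps annotated exons of its host RpS6 and was at 0 CPM in every library. Of these 12 hosts, 11 were lower and 1 was higher, with a median log2 fold change of -1.24, and the 23 tested members without a snoRNA had a median of -0.89. Of the 41 hosted snoRNAs that were tested, 21 were lower, 5 were higher and 15 did not pass. Of the 27 with at least 10 CPM in either group, 18 were lower and 5 were higher. The shares over all tested genes were 30.4% lower and 27.0% higher, and snoRNAs outside these hosts were not counted here.

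Values of hosts and their snoRNAs were set side by side without a test. In RpS7, where 6 of 7 snoRNAs were lower and 1 was higher, the host was at a log2 fold change of -0.66, snoRNA:Psi18S-1377c was at -4.00 and snoRNA:Psi18S-1377a at 0.43. The 3 snoRNAs in RpS4 were all lower, at -2.13 to -1.63 beside a host at -1.39. Many of these snoRNAs are close copies of each other, so their reads could be split. These snoRNAs were chosen after their values were seen.

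**Figure D4:**
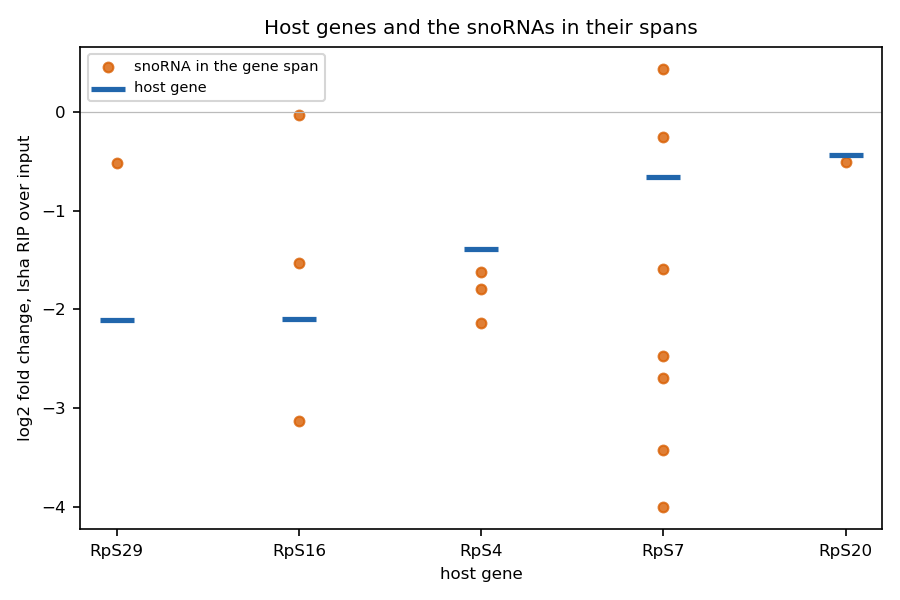
The log2 fold change of Isha RIP over input is plotted for 5 host genes (blue bars) and for the snoRNAs of at least 10 CPM in their spans (orange points). The points of RpS7 fall on both sides of the host's bar, from -4.00 to 0.43, and those of RpS4 lie below it.

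The genes of the large subunit, the most similar set, showed the same direction. Of 51 tested members, 38 were lower and 6 were higher, with a median of -0.86, against -0.98 for the small subunit. At least 2-fold lower were 22 of the 38. The shares of all tested genes were 30.4% lower, 27.0% higher and 12.8% at least 2-fold lower. RpLP2, of the stalk that binds elongation factors, fell from 2496 CPM (SD 46.1, n = 3) to 441 CPM (SD 13.8, n = 3), and RpL8 and RpLP0 had log2 fold changes of -2.69 and -2.07. RpL15 and RpL21 were higher, at 0.50 and 0.52. RpLP0-like, related to the assembly factor Mrt4 of yeast, was the large-subunit gene with the highest log2 fold change, 1.58, and its exons overlap those of Jra. The other genes at least 2-fold lower were RpL22, RpL13, RpL35A, RpL9, RpL34a, RpL4, RpL30, RpL6, RpL10Ab, RpL34b, RpL11, RpL7A, RpL17, RpL37A, RpL26, RpL13A, RpLP1, RpL3 and RpL23.

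Genes of the mitochondrial small subunit, which is built separately inside mitochondria, were lower in 12 and higher in 1 of 26 cases, with a median of -0.41. Among the 8 that were at least 2-fold lower were mRpS2, mRpS25, mRpS26, mRpS29, mRpS22, mRpS16 and mRpS31. All of these named genes but mRpS26 have exons that overlap a gene on the opposite strand, so their reads may be mixed. No difference between these sets was tested, and of all tested genes 30.4% were lower, 27.0% were higher and 12.8% were at least 2-fold lower. All protein-coding genes with an exon length of 500 to 1500 bases, which takes in 34 of the 38 members, had a median of -0.30, and 34.4% of the 3386 tested were lower.

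**Figure D5:**
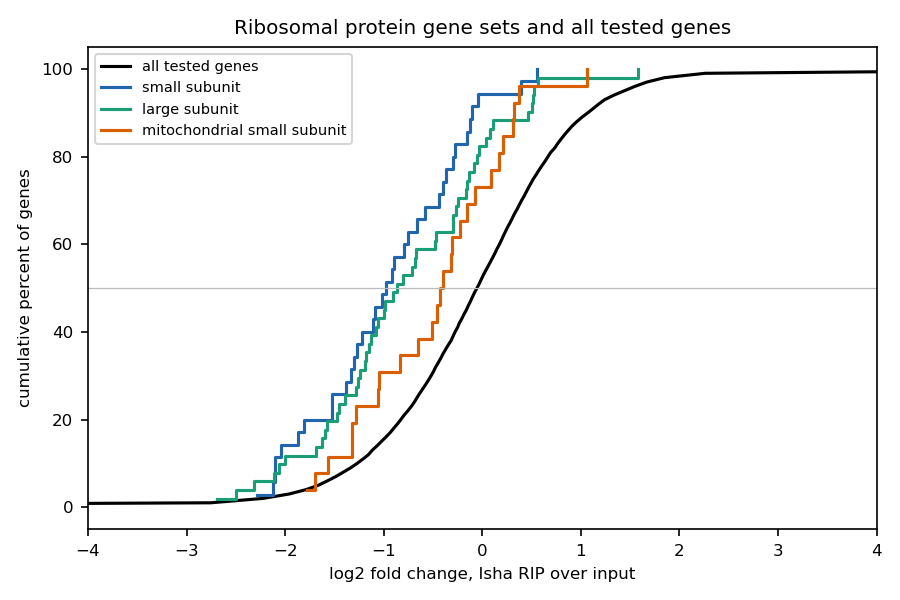
The cumulative percent of genes is plotted against the log2 fold change of Isha RIP over input for all tested genes and for the small-subunit, large-subunit and mitochondrial small-subunit sets. The small-subunit curve crosses 50% at about -0.98 and the large-subunit curve at about -0.86, both left of the mitochondrial set (-0.41) and of all genes (-0.05).

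Genes that build, use or regulate the small subunit went both ways. Of 16 assembly factors, 7 were higher and 6 were lower, with a median log2 fold change of 0.17. Among all tested genes 27.0% were higher and 30.4% were lower, so calls in both directions are common to any list. Nop56, a core protein of the box C/D snoRNPs, went from 123 CPM ± 6.06 (SD, n = 3) to 286 CPM ± 15.7, and the kinase RIOK1 was at a log2 fold change of 1.19. The highest assembly factor, a processome gene, was at 1.25. Fib, the methyltransferase of the same snoRNPs, went from 142 CPM ± 13.3 to 52.2 CPM ± 2.97, with wcd at -1.64 and hoip at -0.72.

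Of 24 initiation factors that act on the small subunit, 10 were higher and 9 were lower, with a median of -0.07. The shares of all tested genes were 27.0% and 30.4%. eIF1A, which binds the decoding site during scanning, went from 146 CPM ± 11.1 (SD, n = 3) to 425 CPM ± 8.57, and the scaffold eIF4G1 and eIF2beta were at log2 fold changes of 1.01 and 0.97. eIF5 was at 2.10, from 2.06 CPM in input, and its exons overlap CG46312 on the same strand. On the other side eIF3i was at -1.77, eIF3e at -0.88 and eIF3l at -0.55.

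Of 14 regulators and partners of ribosomal protein genes, 8 were higher and 5 were lower, with a median of 0.68. The shares of all tested genes were 27.0% and 30.4%. The kinase S6k went from 219 CPM ± 6.27 (SD, n = 3) to 510.2 CPM ± 12.8, and Thor, the TOR-controlled repressor of eIF4E, from 276 CPM ± 12.6 to 651 CPM ± 20.6. The growth regulator Myc and its partner Max were at log2 fold changes of 1.43 and 1.63, and Trf2, a general factor of ribosomal protein gene promoters, and Xrp1, which acts in cells that lack a ribosomal protein gene copy, were at 1.16 and 1.07. Lower genes were Rack1, a scaffold protein on the head of the subunit, at -1.08, raptor at -1.59 and La, a binding protein of new RNA 3′ ends, at -0.71. Rack1, which the naming rule does not take, thus lay within the range of the members, from 1109 CPM ± 6.72 in input to 526 CPM ± 26.8 in RIP. Exons of Rack1, raptor, Myc, Max, Trf2, eIF1A, eIF2beta, eIF3i and eIF3e and of the highest assembly factor overlap other genes.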

How the data were processed

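The authors deposited raw read counts per gene for 6 libraries in featureCounts layout, with exon coordinates and summed exon length per the file headers. The tools cutadapt 2.9, Picard 2.22.2, Subread 2.0.0 and HISAT2 2.2.1 and the build dm6 are listed, without roles or order, per the submitters' processing notes. Strand setting, annotation version and the treatment of duplicates and multi-position reads are unstated in those sources. Overlapping and near-identical genes are therefore uncertain. Groups and replicate numbers came from sample titles.

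Symbols came from a RefSeq table of the same assembly, by coordinates for 16995 genes and by identifier for 191, and 426 stayed unmatched. Genes were filtered with filterByExpr (minimum count 10), scaled by TMM (factors 0.986 to 1.01) and tested with edgeR's quasi-likelihood F-test, group as the only term, 2-sided, Benjamini-Hochberg over all 11764 genes. Each standard error is the log2 fold change divided by the root of its F. Software was edgeR 4.0.16, with limma 3.58.1 and DESeq2 1.42.0 as alternatives, in R 4.3.3. The workflow was tested on simulated data. No replicate pair agreed within sampling noise (chi-square per degree of freedom 5.78 to 14.3). By library total, 1 count equalled at most 0.0341 CPM (input) or 0.119 CPM (RIP).

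The members and lists were chosen with earlier results of these data known. Values in every library were given for all copies, the 5 largest rises and falls, the 3 highest levels per kilobase and untested members, and, chosen after their values were seen, for RpS12, RpS6, RpS13 and RpS27. In other lists the 3 called genes of smallest adjusted p in each direction and every called 2-fold change were named. Some genes under these rules are not reported here, though counts and medians include them.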

Additional observations from a re-analysis of the deposited data

How the results depend on the processing

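Across 17 settings, 569 of 584 log2 fold changes of single members kept their direction and their side of the threshold, and 29 of 35 members did so throughout. The number of small-subunit genes called was 30 to 33 of the 34 to 38 tested in every setting but that without overlapping genes, where it was 23 of 26, and 17 to 23 members were called beyond 1.5-fold (settings for this count were added after seeing the data). The median of the members was -1.05 to -0.97 when single libraries were left out, -0.75 with a per-library offset for gene length and -1.06 without overlapping genes. The length offset also turned RpS27 to 0.15, RpS28b to 0.14, RpS13 to 0.15 and RpS6 to 0.15; the cause was not tested. Leaving out genes with overlapping exons tests fewer genes, and 4396 of all genes and 24 of the large-subunit genes were called. With the replicate number as a block, 31 members and 6585 of all genes were called, the median was -1.02, and no member's call changed. Deviations of same-numbered libraries correlated at -0.01, -0.05 and -0.01, and the labels do not say that numbers pair libraries. The calls of RpS13, RpS28b, RpS15Aa and RpS15Ab near the threshold changed under 1 to 6 settings. RIP depth limits RpS10a, RpS19b, RpS28a and RpS28-like.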
